A study of Mus musculus with 15 samples.

Results

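The mitochondrial ribosomal protein genes were taken as all symbols of the count table that begin with Mrpl or Mrps followed by a digit. This rule found 77 of 24421 symbols, and all 77 passed the filter on low counts, which left 16752 genes. By what is known of the assembled particle, 26 of them encode proteins of the small subunit and 50 proteins of the large subunit. Mrps36, the remaining gene, carries the name but encodes a component of the 2-oxoglutarate dehydrogenase complex. All 77 symbols matched the GENCODE M21 annotation of GRCm38, the build also known as mm10. They lay on 17 chromosomes, with at most 10 on any of them.

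RNA was measured in kidney of wild-type mice (genotype WT), labelled day 14, in 3 groups. The labels do not say which kidney or part of it was taken, nor from when the days are counted. UUO_Si had the UUO operation and a Si-based diet (n = 6), UUO had the same operation and normal diet (n = 6), and sham had a sham operation and normal diet (n = 3). In unilateral ureteral obstruction (UUO) the outflow of a single kidney is tied off, which injures the tubules and leads to fibrosis. The series asks what a Si-based agent given by mouth does to kidney transcripts, and there was no sham group on the Si-based diet. The labels give no strain, sex or age and do not say whether replicates are separate animals, and the spread behind the p-values may therefore be technical.

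The mitochondrial ribosome sits in the mitochondrial matrix and makes the core proteins of oxidative phosphorylation that mitochondrial DNA encodes. Its ribosomal RNAs come from mitochondrial DNA, while all of its proteins are encoded in the nucleus and imported, so that the particle is assembled from the products of both genomes. In the kidney, proximal tubule cells are among the richest in mitochondria, because solute transport there is paid for mainly by oxidative phosphorylation.

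The total count per library, in units of 1e+06, was 7.75 to 11.5 in UUO_Si, 11.2 to 15.4 in UUO and 5.53 to 8.31 in sham. Levels are given as CPM, the counts per 1e+06 of the scaled library size. Proximal tubule markers, 12 of 12 in the table, marked the tissue as kidney, with summed levels of 661 to 1907 CPM in UUO_Si, 838 to 1635 CPM in UUO and 14625 to 17187 CPM in sham. Summed macrophage markers (10 genes) were 899 to 1389 CPM in UUO_Si, 979 to 1307 CPM in UUO and 127 to 200 CPM in sham. Summed fibroblast markers (10 genes) were 4927 to 6858 CPM in UUO_Si, 5758 to 10941 CPM in UUO and 419 to 615 CPM in sham. None of these 3 marker lists had a gene at 0 in every library of a group. The libraries of UUO_Si replicate 6, UUO replicates 5 and 6 and sham replicate 3 stood apart from the rest. They had counts in 1030, 834, 1287 and 1250 of 1463 olfactory and vomeronasal receptor genes, against 102 to 169 in the others. Each group of obstructed libraries held 2 code series and sham 1. The sample codes begin with RM4 or RM7 in UUO_Si, RM3 or RM6 in UUO and RM1 in sham, so code series and group cannot be told apart between groups. RM6 and RM7 were the series of UUO replicates 5 and 6 and of UUO_Si replicate 6, so within the obstructed groups the libraries that stood apart were those of the second series.

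Obstruction on the normal diet was set against sham first. In the main fit about 1 in 2 of the mitochondrial ribosomal protein genes fell in UUO, mostly by less than 2-fold, and a single gene rose. At an adjusted p below 0.05 (edgeR's quasi-likelihood test, Benjamini-Hochberg over all 16752 genes), 40 of 77 were lower, against 26.4% of all tested genes. Only Mrpl33 was higher, against 27.5% of all tested genes, and 36 did not pass. The median log2 fold change of the 77 genes was -0.40, against -0.04 over all tested genes, and 64 of 77 were below 0 (51.9% of all tested genes). In 32 of the 40 lower genes every UUO library lay below every sham library (22.3% of all tested genes did), while in the other 8 the groups overlapped. Every UUO library lay above every sham library in 1 gene (24.6% of all tested genes). The falls that passed ranged between 1.16-fold and 2.59-fold, and 7 genes stood at 0.5 times the sham level or less. In bulk tissue, fewer cells of a type and less RNA per cell cannot be told apart. Other summed markers differed too, with means in UUO and sham of 1597 and 9326 CPM (loop of Henle and distal convoluted tubule). Those of the collecting duct were 170 and 487 CPM, of urothelium 145 and 13.2 CPM and of proliferation 331 and 84.5 CPM. Endothelium had 658 and 665 CPM and podocytes 721 and 832 CPM. The part that the lower tubule markers and the higher macrophage, fibroblast, urothelium and proliferation markers play in these changes was not tested. Rn45s, the ribosomal RNA precursor, took 2.13 to 4.45% of counts in UUO_Si, 2.07 to 3.26% in UUO and 3.67 to 4.39% in sham, so UUO lay wholly below sham. Its part in the changes was not tested, and 39 genes were lower with Rn45s and the haemoglobin genes left out (26.1% of all tested genes).

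**Figure D1:**
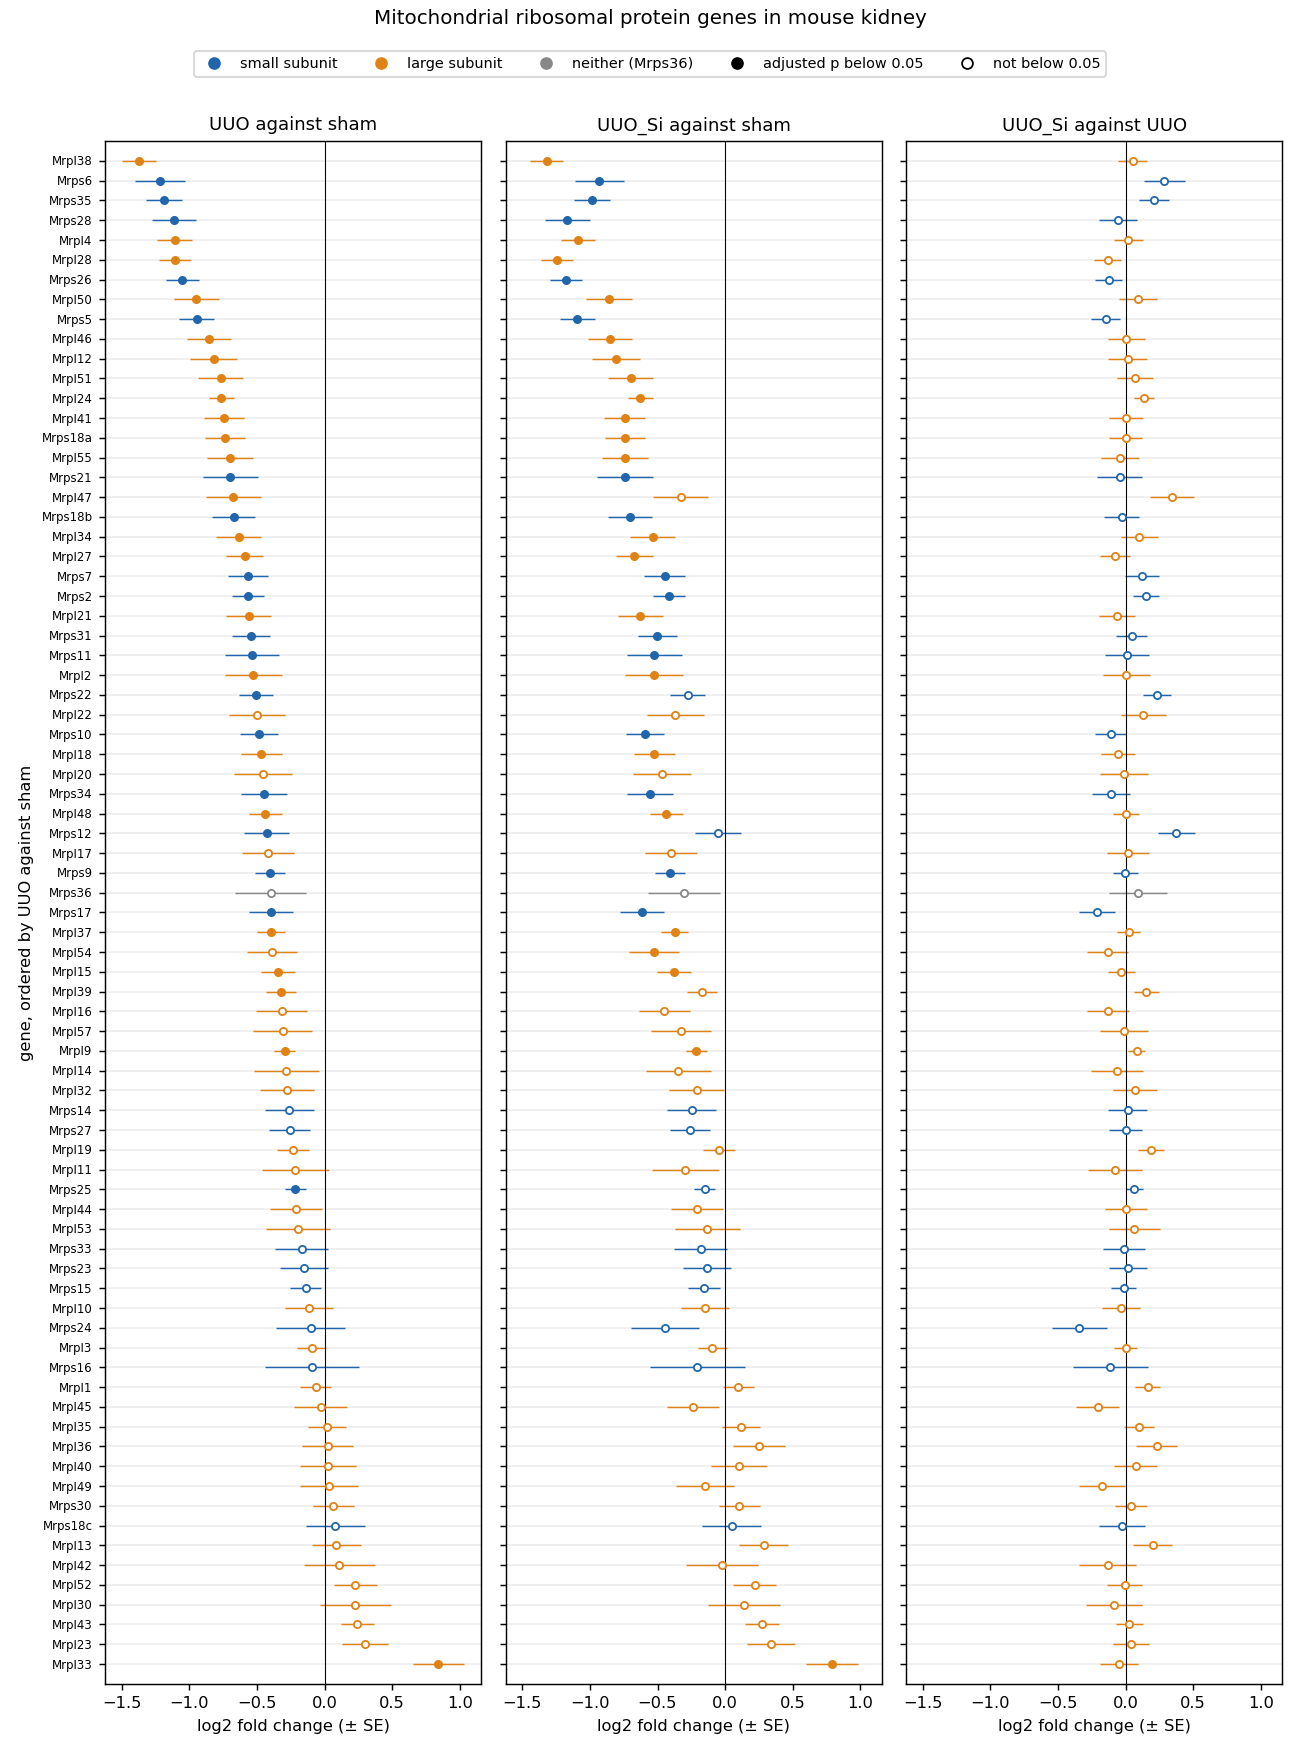
Log2 fold change (x axis, ± SE) of each of the 77 genes (y axis, ordered by UUO against sham) in the 3 comparisons, coloured by subunit, with filled points where the adjusted p was below 0.05. In UUO against sham 40 genes are filled on the left and only Mrpl33 on the right, and in UUO_Si against UUO none is filled.

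Leaving out sham replicate 1 left 29 lower genes (20.2% of all tested genes) and moved the median to -0.29 (-0.08 over all tested genes). Upper-quartile scaling and no filter each left 32 lower genes (23.7% and 16.4% of all tested genes). With limma-voom 45 were lower (29.7% of all tested genes). Without the 4 libraries that stood apart, 43 genes were lower (27.3% of all tested genes) and 1 higher. The median was then -0.53, against 0.04 over all tested genes. Leaving out code series RM6 and RM7, that is UUO replicates 5 and 6 and UUO_Si replicate 6, also left 43 lower genes (27.3% of all tested genes). All of these are among the 4 libraries that stood apart. The last 2 fits thus differ only by sham replicate 3 and are not separate checks. UUO replicates 5 and 6 had the highest summed level of the 77 genes among UUO libraries, UUO_Si replicate 6 the highest in its group and sham replicate 3 the lowest in sham. In CPM, that sum was 1356 to 1864 in UUO_Si, 1323 to 1754 in UUO and 2027 to 2218 in sham, so both obstructed groups lay wholly below sham.

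**Figure D2:**
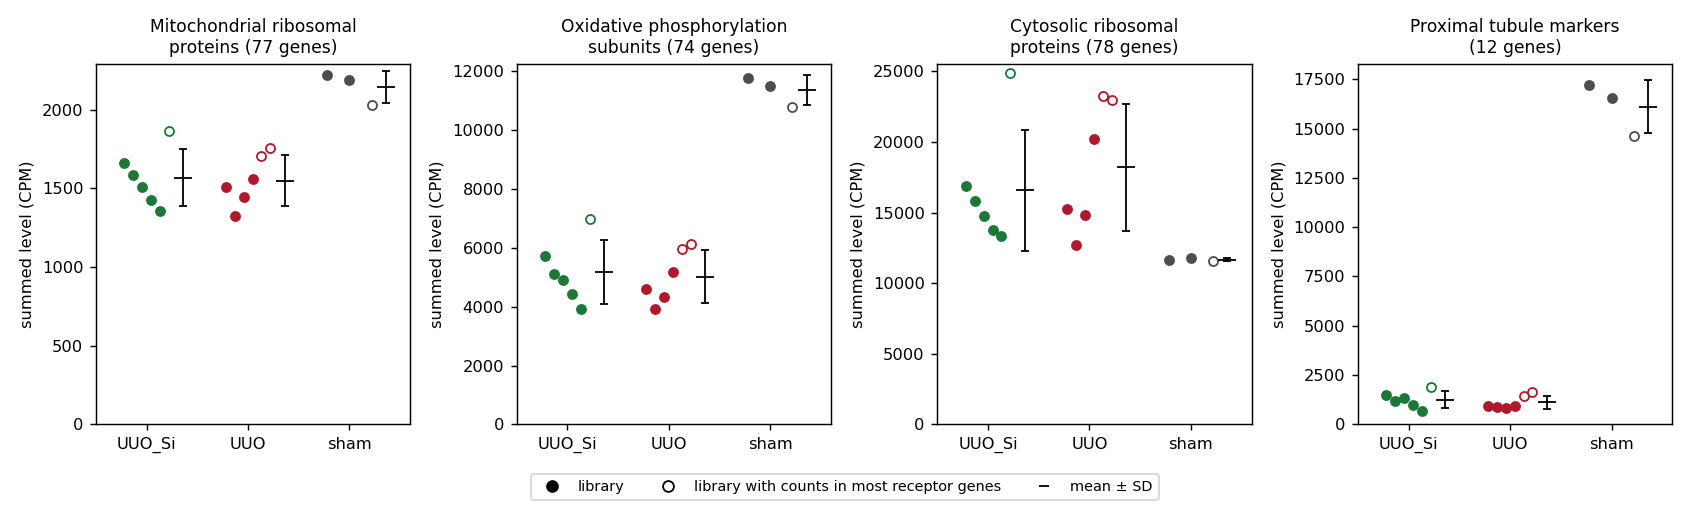
Summed level (CPM) per library for the 77 mitochondrial ribosomal protein genes, 74 oxidative phosphorylation subunits, 78 cytosolic ribosomal proteins and 12 proximal tubule markers in UUO_Si, UUO and sham, with mean ± SD. Open circles mark the 4 libraries with counts in 834 to 1287 sensory receptor genes. The mitochondrial ribosomal sum is 1323 to 1754 CPM in UUO and 2027 to 2218 CPM in sham, and the cytosolic ribosomal sum lies above sham in both obstructed groups.

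In the small subunit, which reads the messenger RNA, 18 of 26 genes fell in UUO and none rose. Over all tested genes 26.4% were lower and 27.5% higher. The median over the 26 was -0.47 on the log2 scale. The 16 genes with a bacterial counterpart held 11 that fell (median -0.46), and the 10 proteins found only in mitochondria held 7 (median -0.48). The genes that fell most were Mrps6, Mrps35 and Mrps28. Mrps6, counterpart of a bacterial platform protein that binds the S18 family, had 34.3, 54.3 and 70.9 CPM (lowest, median and highest) in UUO_Si, 35.9, 42.4 and 45.7 CPM in UUO, and 107, 107 and 76.2 CPM in the 3 sham libraries. Both obstructed groups lay below all sham libraries, and sham replicate 3 was the lowest of sham. Its log2 fold change in UUO was -1.22 ± 0.18 (SE, adjusted p = 2.25e-05, edgeR). Mrps6 lies at chr16:92058270-92112227 on the plus strand and shares exon sequence on the same strand with Slc5a3, an inositol transporter gene. Slc5a3 averaged 454 ± 142 CPM in UUO_Si, 303 ± 59.1 CPM in UUO and 1189 ± 76.9 CPM in sham (SD), so reads of the pair may have been assigned to either gene.

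Mrps35, a mitochondria-specific protein (chr6:147042764-147073991, plus strand), had 21.5, 22.9 and 30.0 CPM in UUO_Si, 17.2, 21 and 24.7 CPM in UUO, and 46.4, 53.1 and 44.0 CPM in sham. No obstructed library reached the lowest sham library. The log2 fold change in UUO was -1.19 ± 0.13 (SE, adjusted p = 7.98e-07, edgeR). Mrps28, the counterpart of a bacterial protein that holds messenger RNA on the ribosome (chr3:8802146-8923918, minus strand), had 6.83, 7.67 and 9.65 CPM in UUO_Si, 6.39, 8.46 and 9.68 CPM in UUO, and 18.1, 19.0 and 15.9 CPM in sham. Again the obstructed groups did not overlap sham. Its log2 fold change in UUO was -1.11 ± 0.16 (SE, adjusted p = 1.98e-05, edgeR). Of the genes of highest and lowest level, Mrps21 fell by 0.70 ± 0.20 and Mrps10 by 0.48 ± 0.14 on the log2 scale (adjusted p = 0.0079 and 0.00775, edgeR), both without overlap.

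In the large subunit, which joins the amino acids, 22 of 50 genes fell, 1 rose and 27 did not pass. The median log2 fold change was -0.32, and 26.4% of all tested genes were lower and 27.5% higher. Among its 29 genes with a bacterial counterpart 12 fell (median -0.32), and among the 21 that are mitochondria-specific or recruited to this subunit in mitochondria 10 fell (median -0.32). Whether the subunits differ was not tested. Mrpl38, a protein of the central protuberance (chr11:116131817-116138868, minus strand), fell most of the 77. It had 24.9, 28.8 and 40.2 CPM in UUO_Si, 25.6, 28.9 and 32.0 CPM in UUO, and 72.8, 80.9 and 70.9 CPM in sham. The highest obstructed library thus stood well below the lowest sham library. The log2 fold change in UUO was -1.37 ± 0.12 (SE, adjusted p = 7.47e-08, edgeR), a 2.59-fold fall.

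Mrpl33, a small protein of the large subunit (chr5:31596935-31664384, plus strand), was the gene that rose. Its level was 11.5, 15.5 and 18.6 CPM in UUO_Si, 13.2, 16 and 19.6 CPM in UUO, and 7.74, 7.51 and 11.4 CPM in sham. All obstructed libraries lay above all sham libraries, by a narrow margin over sham replicate 3. The log2 fold change in UUO was 0.84 ± 0.19 (SE, adjusted p = 0.00129, edgeR). Mrpl52 was not called, at 0.23 ± 0.16, and its groups overlapped.

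**Figure D3:**
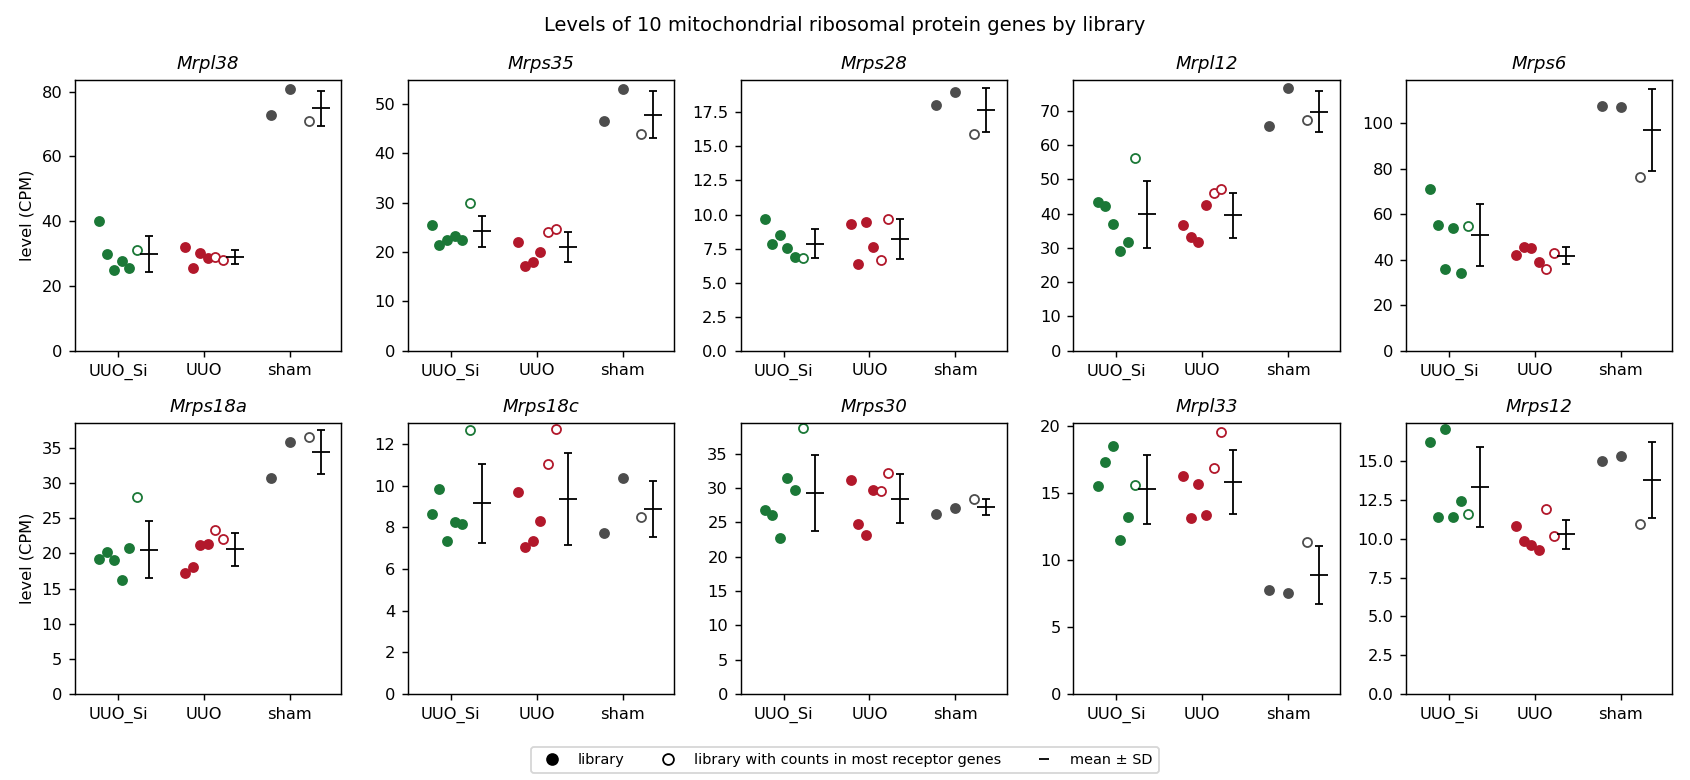
Level (CPM) of 10 of the 77 genes, picked after their values were seen, in every library of UUO_Si, UUO and sham, with mean ± SD; open circles are the 4 libraries with counts in many sensory receptor genes. Mrpl38, Mrps35 and Mrps28 lie below sham in all 12 obstructed libraries, Mrpl33 lies above it, and Mrps18c, Mrps30 and Mrps12 overlap.

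The S18 family has 3 mitochondrial members in mammals, which take different places in the particle. Mrps18c occupies the bacterial S18 position in the small subunit, Mrps18b sits elsewhere in the small subunit and Mrps18a is part of the large subunit. Mrps18a had 16.2, 19.7 and 28.1 CPM in UUO_Si, 17.3, 21.3 and 23.4 CPM in UUO, and 30.8, 35.8 and 36.6 CPM in sham. Mrps18b had 12.3, 14.6 and 21 CPM in UUO_Si, 14.5, 14.8 and 18.3 CPM in UUO, and 30.2, 23.7 and 21.4 CPM in sham. Neither gene overlapped sham in the obstructed groups, and they fell in UUO by 0.74 ± 0.15 and 0.67 ± 0.16 on the log2 scale (adjusted p = 0.000399 and 0.00174, edgeR). Mrps18c had 7.35, 8.46 and 12.7 CPM in UUO_Si, 7.08, 9.01 and 12.7 CPM in UUO, and 7.74, 10.4 and 8.52 CPM in sham. Its groups overlapped, and its log2 fold change in UUO was 0.08 ± 0.22 (adjusted p = 0.782, edgeR). Its sign turned to -0.15 without the 4 libraries that stood apart. The difference between the paralogues was not tested.

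The flexible stalk of the large subunit recruits translation factors. Mrpl12, the stalk protein itself, had 29.0, 39.5 and 56.1 CPM in UUO_Si, 31.7, 39.6 and 47.2 CPM in UUO, and 65.5, 76.7 and 67.3 CPM in sham. Its obstructed libraries all lay below sham, and its log2 fold change in UUO was -0.82 ± 0.18 (SE, adjusted p = 0.000765, edgeR). The stalk base genes Mrpl10 and Mrpl11 overlapped sham, at -0.12 ± 0.18 and -0.22 ± 0.25. Of 7 genes listed around the polypeptide exit tunnel 2 fell, a share near the 26.4% of all tested genes, with a median of -0.32. Without the 4 libraries that stood apart, 4 of the 7 fell (27.3% of all tested genes), with a median of -0.37. Mrps30, which despite its name belongs to the large subunit, averaged 29.2 ± 5.53 CPM in UUO_Si, 28.4 ± 3.60 CPM in UUO and 27.2 ± 1.11 CPM in sham (SD). Mrps36 averaged 14.3 ± 4.49 CPM in UUO_Si, 13.4 ± 3.63 CPM in UUO and 17.7 ± 3.51 CPM in sham. Neither passed the test, with log2 fold changes in UUO of 0.06 ± 0.15 and -0.40 ± 0.26. Mrps36 was called lower in UUO without code series RM6 and RM7. Without the 4 libraries that stood apart it did not pass, at -0.56 ± 0.27.

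Promoters were searched because the transcription factors NRF1 and GABP are known regulators of nuclear genes for mitochondria. RefSeq promoters of 68 members were at hand, and 250 bases upstream of each start were searched on both strands. The NRF1 motif, GCGCA, then any base, then GCGC, was found in 10 of 68 members (14.7%), in 5.86% of the 17224 genes of the count table with a promoter entry, and in 4.23% of all 27025 entries. The GABP motif CCGGAAG was found in 17 of 68 members (25%), in 10.1% of the genes of the count table and in 7.83% of all entries. A further search for the YY1 motif AAGATGGCG, added to those planned, found it in 2 of 68 members (2.94%), in 0.91% of the genes of the count table and in 0.71% of all entries. Among 34 lower members with a promoter, 4 held NRF1 and 8 GABP, and among 33 not called, 6 held NRF1 and 9 GABP. A match is a stretch of letters and not a site shown to be bound.

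Of the 7 named members with an NRF1 or GABP match 4 are shown, picked after their values were seen: the NRF1 members of highest level per kb and the S18 paralogues that hold GABP. The bases before each gene are written 5′ to 3′ on the gene's strand (RefSeq, GRCm38.p6), with the motif, as read on either strand, in capitals and only the stretch outside the annotated gene printed. Mrps21 (chr3:95871520-95871764, minus strand) and Mrpl12 (chr11:120484387-120484612, plus strand) both fell in UUO and hold NRF1. Mrps18a (chr17:46110754-46110985, plus strand) fell and Mrps18c (chr5:100798509-100798626, plus strand) did not pass, and both hold GABP. The motif began 91 bases before the RefSeq start in Mrps21, 81 in Mrpl12, 26 in Mrps18a and 156 in Mrps18c.
Mrps21: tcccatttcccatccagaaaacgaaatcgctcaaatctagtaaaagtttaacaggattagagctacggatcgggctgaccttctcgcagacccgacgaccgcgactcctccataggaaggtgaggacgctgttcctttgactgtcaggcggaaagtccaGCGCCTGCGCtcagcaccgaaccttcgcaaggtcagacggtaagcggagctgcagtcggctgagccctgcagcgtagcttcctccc
Mrpl12: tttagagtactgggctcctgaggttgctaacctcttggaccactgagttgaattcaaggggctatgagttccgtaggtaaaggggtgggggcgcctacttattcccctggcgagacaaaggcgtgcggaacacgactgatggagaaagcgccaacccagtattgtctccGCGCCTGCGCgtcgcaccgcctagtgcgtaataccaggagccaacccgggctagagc
Mrps18a: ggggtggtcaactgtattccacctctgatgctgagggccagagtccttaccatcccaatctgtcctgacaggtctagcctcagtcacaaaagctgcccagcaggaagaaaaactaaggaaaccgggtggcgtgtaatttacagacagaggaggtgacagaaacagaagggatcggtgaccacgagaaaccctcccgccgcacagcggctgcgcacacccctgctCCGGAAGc
Mrps18c: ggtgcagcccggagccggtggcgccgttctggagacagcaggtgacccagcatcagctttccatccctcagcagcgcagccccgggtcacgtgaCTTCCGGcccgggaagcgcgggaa

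An incomplete panel of 9 members known for human disease variants was also looked at (Mrpl3, Mrpl24, Mrpl44, Mrps2, Mrps7, Mrps14, Mrps16, Mrps22 and Mrps34). Of these, 5 fell in UUO against sham (26.4% of all tested genes were lower), with log2 fold changes of -0.76 to -0.09 over the 9 genes. The call of Mrps34 was lost in 9 alternatives and that of Mrps7 without sham replicate 1. Mrps34 shares exon sequence with Mapk8ip3 on the opposite strand and with Nme3 on its own strand.

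Per kilobase of exon, levels across the 77 genes spanned a 22.3-fold range. Mrps6 averaged 33.2 ± 8.97 CPM per kb in UUO_Si, 27.2 ± 2.44 in UUO and 63.2 ± 11.8 in sham. Mrps21 averaged 30.8 ± 8.31, 31.8 ± 6.09 and 51.7 ± 6.82 CPM per kb in the same groups. Mrpl52 followed with 35.1 ± 5.97, 35.3 ± 6.09 and 30.2 ± 2.65 CPM per kb, and Mrpl12 with 26.0 ± 6.38, 25.8 ± 4.31 and 45.6 ± 3.94. These 4 genes headed the order over all libraries and in both obstructed groups. In sham, Mrpl18 (32.9 ± 1.12) and Mrpl54 (31.7 ± 5.56), named outside the rule, averaged more than Mrpl52. Within UUO, Mrps21 and Mrpl52 differed by less than their SD, and so did Mrps6 and Mrpl12. Over all libraries the lowest were Mrpl47, at 1.70 ± 0.24, 1.35 ± 0.28 and 2.15 ± 0.48 CPM per kb in UUO_Si, UUO and sham, and then Mrpl33, Mrps10 and Mrpl32. The order at the low end differed between groups. Mrpl33 averaged 2.09 ± 0.35 CPM per kb in UUO_Si, 2.16 ± 0.33 in UUO and 1.21 ± 0.30 in sham, where it was the lowest of all. Mrps17, named outside the rule, lay below Mrpl33 in the obstructed groups, at 1.77 ± 0.28 CPM per kb in UUO_Si and 2.06 ± 0.32 in UUO, within the SD. Mrpl47 fell in UUO by 0.67 ± 0.20 on the log2 scale (adjusted p = 0.00939, edgeR), with overlap, and its call was lost without sham replicate 2 (-0.51, adjusted p = 0.0851). Lengths are of all annotated exons, so a gene with long rarely used exons is placed too low. Across the 77 genes, the log2 fold change of UUO_Si against sham had a Spearman correlation of -0.20 with the level per kb in UUO, which shares no library with it.

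The share of small-subunit genes in the summed level of both subunits averaged 34.9% ± 0.60 in UUO_Si, 34.8% ± 0.72 in UUO and 37.8% ± 1.49 in sham (SD). Without Mrps6, left out after its values were seen, it was 32.7% ± 0.44 in UUO_Si, 33.0% ± 0.53 in UUO and 34.9% ± 1.14 in sham. With Mrps6 left out the highest UUO library (33.8%) passed the lowest sham library (33.7%).

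Obstruction on the Si-based diet was also set against sham, from which it differs in operation and diet. It shares the sham libraries with the comparison above, so the values stand side by side and are not separate evidence. In UUO_Si 36 of 77 genes were lower (25.5% of all tested genes), 1 was higher (27.2% of all tested genes) and 40 did not pass. The median log2 fold change was -0.37, against -0.04 over all tested genes, and 65 of 77 were below 0 (51.9% of all tested genes). In 32 genes all UUO_Si libraries lay below sham (21.8% of all tested genes), and in 1 above (24% of all tested genes). Mrpl38 again fell most, by 1.32 ± 0.13 on the log2 scale (adjusted p = 1.43e-07, edgeR), and Mrpl33 rose by 0.79 ± 0.19 (adjusted p = 0.00224, edgeR). Mrpl28 and Mrps26, chosen after their values were seen, fell by 1.24 ± 0.12 and 1.18 ± 0.12. Mrps6 changed by -0.93 ± 0.18, and Mrps12, Mrps22 and Mrpl47 did not pass, at -0.05 ± 0.17, -0.28 ± 0.13 and -0.33 ± 0.20. Mrps22 was called lower with limma-voom and with a minimum count of 50. Without sham replicate 1, 24 genes were lower (20.4% of all tested genes).

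The effect of the Si-based diet within obstruction was the difference between UUO_Si and UUO. No mitochondrial ribosomal protein gene passed in either direction, and neither did any of the 16752 tested genes (0% called) with edgeR or limma-voom, while DESeq2 called 2 genes of the table and none of the 77. At an unadjusted p below 0.05 there were 2 of the 77 genes, Mrps12 and Mrps22, against 3.74% of all tested genes. The median log2 fold change of the 77 genes was 0.004, with 33 of them below 0 (49.7% of all tested genes), and the range was -0.34 (Mrps24) to 0.38 (Mrps12). The SE had a median of 0.14, and no gene had groups without overlap (0.0955% of all tested genes lay wholly below UUO and 0.107% wholly above). Mrps24 is named for its value, outside the rule. Mrps12, a protein of the decoding centre, had 11.4, 12.01 and 17.1 CPM in UUO_Si and 9.30, 10.02 and 11.9 CPM in UUO. The groups overlapped, and the log2 fold change was 0.38 ± 0.13 (adjusted p = 0.999, edgeR). Mrps22 differed by 0.23 ± 0.10, Mrpl47 by 0.34 ± 0.16 and Mrpl19 by 0.19 ± 0.10 on the log2 scale, each with adjusted p = 0.999 in edgeR's test.

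Other genes of mitochondrial translation were counted in lists, to be read against all tested genes in UUO against sham, of which 26.4% were lower and 27.5% higher, with a median of -0.04. Of 6 mitoribosome proteins with other symbols, 5 fell in UUO against sham, among them Dap3 (-0.72 ± 0.10), a small-subunit GTP-binding protein, and Ptcd3 (-0.78 ± 0.13). Among 12 mitochondrial translation factors 10 fell (median -0.74), with the ribosome-recycling factor Gfm2 at -0.79 ± 0.09 and Taco1, an activator of cytochrome oxidase translation, at -1.48 ± 0.18. The list of mitochondrial aminoacyl-tRNA synthetases, which charge the tRNAs, held 16 of 20 that fell and 1 that rose (median -0.61). It includes Qrsl1, an amidotransferase subunit and no synthetase, and Kars and Gars, which also serve the cytosol. Fars2 and Yars2, which charge the phenylalanine and tyrosine tRNAs, were at -0.95 ± 0.12 and -0.92 ± 0.17. Mitoribosome assembly factors held 9 of 22 that fell (median -0.37), with Afg3l2 at -1.20 ± 0.09 and Spg7 at -0.67 ± 0.11, subunits of the protease that matures Mrpl32. Mrpl32 itself did not pass, at -0.28 ± 0.20. Mitochondrial DNA upkeep and transcription held 7 of 15 that fell (median -0.35), with the RNA polymerase Polrmt at -1.55 ± 0.13 and Lrpprc, which stabilises mitochondrial messenger RNA, at -1.23 ± 0.09.

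Oxidative phosphorylation subunits fell in 69 of 74 genes, and the median over the list was -1.14 in UUO against sham. Ndufs1, a core subunit of complex I, was at -1.48 ± 0.09 and Atp5e, of the ATP synthase, at -1.58 ± 0.10. Of 78 cytosolic ribosomal protein genes 50 rose and none fell, and the median over the list was 0.76 on the log2 scale, with Rpl35 at 1.18 ± 0.14 and Rps13 at 1.42 ± 0.18. Without the 4 libraries that stood apart, that count was 42 higher and 2 lower (median 0.56). Of 16294 tested genes, 4904 were then higher and 4450 lower. Among 20 cytosolic translation factors 10 rose and 3 fell, and the elongation factor subunits Eef1b2 and Eef1g were at 1.01 ± 0.17 and 0.75 ± 0.14. In UUO_Si against UUO, 0 genes of these lists were called by edgeR. The ratio of the summed mitochondrial ribosomal level to that of oxidative phosphorylation was 0.267 to 0.347 in UUO_Si, 0.286 to 0.339 in UUO and 0.188 to 0.190 in sham, without overlap of obstructed and sham libraries. Of 9 regulators of mitochondrial biogenesis 3 fell and 1 rose, and the share that fell was near the 26.4% of all tested genes. The coactivator Ppargc1a was at -2.14 ± 0.12, the nuclear receptor Esrra at -1.48 ± 0.14 and the coactivator Ppargc1b at -1.88 ± 0.20, and Myc, a growth regulator, was at 1.29 ± 0.15. The transcription factors Nrf1 and Gabpa did not pass, at -0.07 ± 0.16 and 0.09 ± 0.09. Of these, Ppargc1b, Myc, Nrf1 and Gabpa were chosen after their values were seen.

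**Figure D4:**
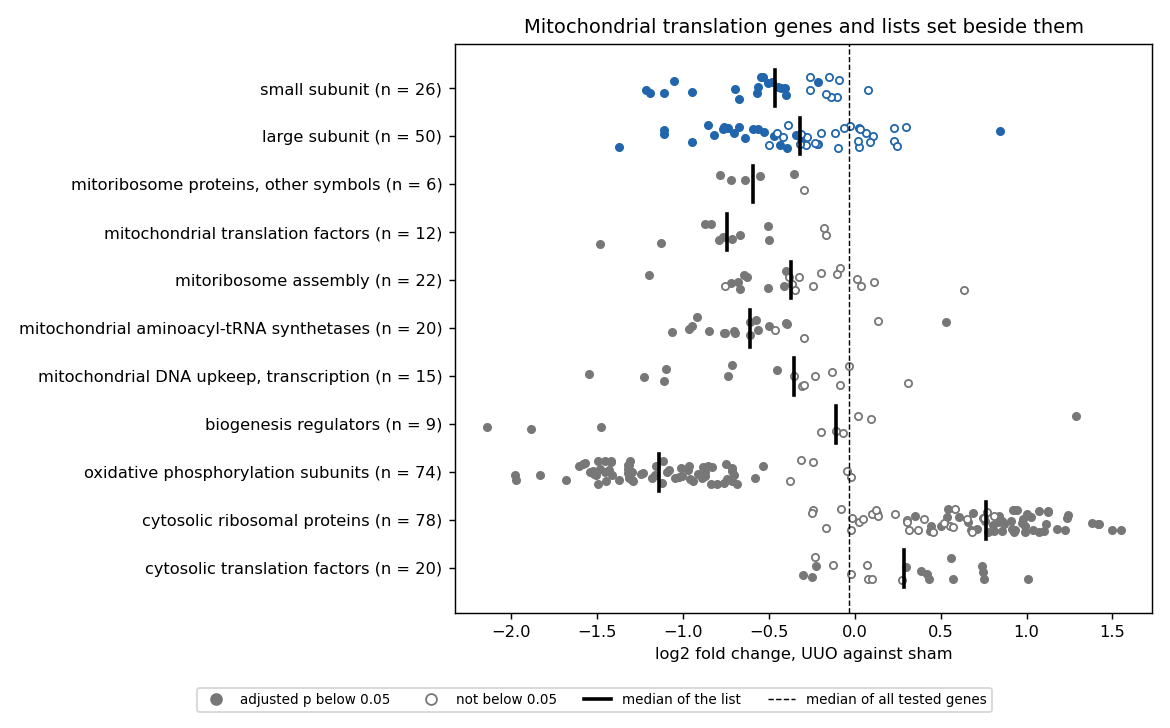
Log2 fold change of UUO against sham for each gene (points, filled where the adjusted p was below 0.05) of 11 lists, with list medians (bars) and the median of all tested genes (-0.04, dashed). Medians run from -1.14 for oxidative phosphorylation subunits to 0.76 for cytosolic ribosomal proteins, with the small subunit at -0.47 and the large subunit at -0.32.

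Many mitochondrial ribosomal protein genes start back to back with another gene. By the annotation, 31 of the 77 had a protein-coding gene on the other strand starting within 1000 bases, a single pair being made of 2 members, Mrpl46 and Mrps11, which both fell, the call of Mrps11 being lost in 7 alternatives. For the 28 pairs with a tested neighbour that is no member, 15 members fell, and of their neighbours 7 were lower, 4 higher and 4 not called. Of the 13 members that did not pass, 4 neighbours were lower, 2 higher and 7 not called. Over all tested genes 26.4% were lower and 27.5% higher. Mrps12 and Sars2, a mitochondrial synthetase gene, were at -0.43 ± 0.17 and -0.76 ± 0.16. The Mrps12 groups overlapped, and its call (adjusted p = 0.0394, edgeR) was lost in 9 alternatives, at adjusted p of 0.057 to 0.184. Mrpl51 fell by 0.77 ± 0.16, beside Ncapd2, a condensin gene, which rose by 0.71 ± 0.14. Mrpl18 fell by 0.47 ± 0.15, beside Tcp1, a chaperonin gene, which rose by 0.58 ± 0.18. The call of Mrpl18 was lost without sham replicate 1 and without sham replicate 2. These pairs were chosen after their values were seen. Where the exons of a pair overlap, reads may be shared, since no source used here gives the strand setting of the counting. Exon overlap with an opposite-strand gene covered 10% or more of 13 members, and among the other 64 members 32 fell.

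**Figure D5:**
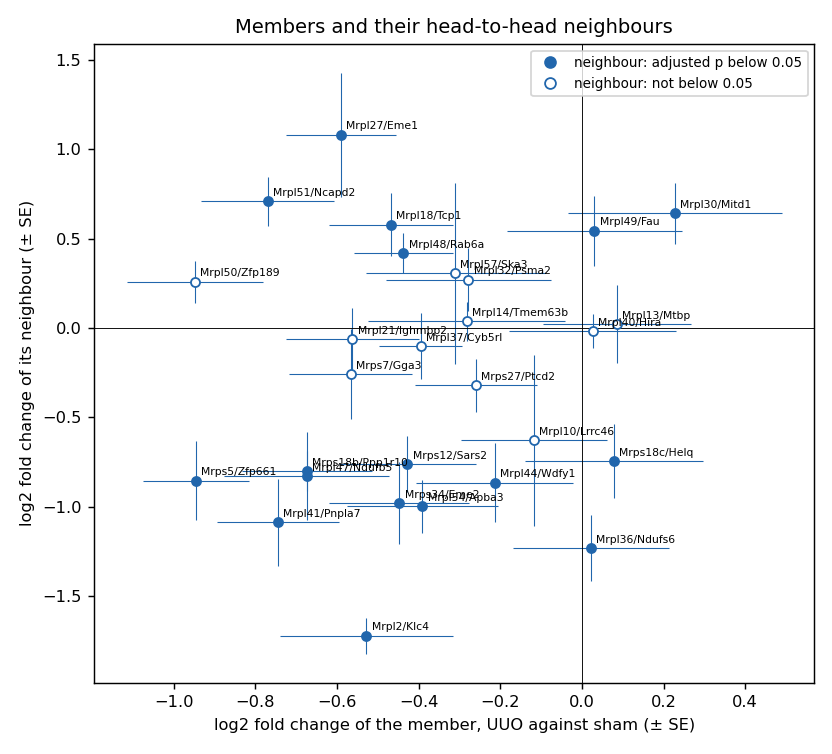
Log2 fold change in UUO against sham (± SE) of members (x axis) and of the head-to-head neighbour on the other strand (y axis) for 28 pairs, with filled points where the neighbour's adjusted p was below 0.05. Mrpl51 and Mrpl18 lie left of 0 with Ncapd2 and Tcp1 above 0, and Mrpl2 and Klc4 are both below 0.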

How the data were processed

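Total RNA of mouse kidney was measured in 15 libraries made with a SMARTer Stranded Pico kit, per the labels' protocols. The deposited table holds expected counts per gene symbol, taken as such because library totals differ and part of the values are fractions. TopHat2 2.1.1, Cuffdiff 2.2.1 and mm10 are named in the submitters' processing notes, while the counter, the annotation and the strand setting are not stated in the sources read for this work. Expected counts were rounded and used as counts, and all columns of the table were used.

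Genes were kept with edgeR's filter (minimum count of 10), scaled with TMM and tested in a single fit of all libraries, with a mean per group, by edgeR 4.0.16 (quasi-likelihood, robust) run in R 4.3.3. Adjustment covered all tested genes. The SE is the absolute log2 fold change over the square root of F. The steps were tested on simulated data. Members, lists and named genes were chosen with earlier results of these data known. Named are the 4 largest falls and rises that passed, members against the main direction, the 4 highest and lowest levels per kb, the 4 smallest p for diet, the S18 and stalk proteins, Mrps30 and Mrps36, and the 2 smallest p of each list. Genes named outside this rule are marked in the text. Gene positions and exon lengths come from GENCODE M21, which matched 95.7% of symbols. Mrps24, Mrpl9, Mrpl35 and Mrpl19 had fractional values in every library. Alternatives were scaling by upper quartile or RLE, a minimum count of 50 or none, DESeq2 1.42.0, limma-voom (limma 3.58.1), fits of 2 groups, a replicate block, and libraries or genes left out. Figures were drawn with matplotlib 3.10.9.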

Additional observations from a re-analysis of the deposited data

Results flagged for a closer look

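Among 54 groups of 6 libraries examined, 1 had a library far from the others, and chance flags about 1 in 20. In UUO_Si replicate 6 the summed level of the 77 mitochondrial ribosomal protein genes was 0.0749 of that of the cytosolic ribosomal proteins, against 0.0984 to 0.104 in the other UUO_Si libraries. Its gap to the nearest library was 0.817 of the range of the group. This library is among the 4 with counts in many sensory receptor genes, and the part of that in the low ratio was not tested. The ratio in UUO was 0.0733 to 0.104, with replicates 4, 5 and 6 at 0.0772, 0.0733 and 0.0764. Of these, UUO replicate 4 had counts in only 119 receptor genes.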

How the results depend on the processing

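Other scalings, filters, tools and sets of libraries were tried. Of the 40 and 36 lower genes in UUO and UUO_Si against sham, 13 and 12 lost the call in at least 1 of 27 alternatives, up to 12 of them without sham replicate 1 in each comparison. Mrps17 lost it in 18 and Mrpl2 in 14 alternatives in UUO against sham. For the genes named by rule, no called log2 fold change changed sign among 639 values, and 10 lost the call, namely Mrps12 (UUO against sham) in 9 alternatives and Mrpl47 (UUO against sham) without sham replicate 2. Of their uncalled values 6 gained a call, all lower. These were of Mrps36 (UUO against sham) and of Mrpl11 and Mrps22 (UUO_Si against sham). Further members, among them Mrpl17, Mrpl20, Mrpl22 and Mrpl54, gained a lower call in UUO against sham under some alternatives. Leaving out 1 library at a time, lower genes numbered 29 to 41 in UUO against sham and 24 to 40 in UUO_Si against sham. The share lower over all tested genes was 20.2 to 27.9% and 20.4 to 26.8% in these fits. Higher genes numbered 1 to 2 in both, and none was called in UUO_Si against UUO. The count of higher genes was 2 under upper-quartile scaling in both comparisons with sham, and in UUO_Si against sham also 2 with limma-voom and without the 4 receptor-gene libraries. With the replicate number as a block 37 and 38 genes were lower in UUO and UUO_Si against sham, and none in UUO_Si against UUO. Over all tested genes 24.4% and 23.7% were lower against sham in that fit. Correlations of deviations between same-numbered libraries ran from -0.39 to 0.75 over 12 pairs, with 6 of them over 0.1. The highest was that of UUO replicate 6 with UUO_Si replicate 6, both among the 4 receptor-gene libraries, and the next was 0.19. As 2 libraries correlated best with their own number, the numbers were not taken as pairs. The cause of the values that moved was not tested. In simulated counts 200 genes were changed at a time, drawn only from genes above a set mean count. For UUO against sham, 19.5% of those changed by 1.5-fold and 79.5% of those changed by 2-fold were called. Of the calls there, 9.30% and 5.36% were false. The shares called were 60% and 93% for UUO_Si against UUO and 9.5% and 80.5% for UUO_Si against sham. In the data far more genes were called in UUO and UUO_Si against sham (9036 and 8834 of 16752). The cutoff on p was therefore looser there, and the simulated shares do not describe the comparisons with sham. In UUO_Si against UUO 0 of 16752 genes were called, so the cutoff on p was stricter than in the simulation. The simulated shares therefore do not describe that comparison either.

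Values that passed no test changed sign 90 times, at an absolute log2 fold change of at most 0.146. With limma-voom with sample weights, log2 values were in UUO against sham Mrps18c -0.066, and in UUO_Si against UUO Mrpl33 0.012, Mrpl52 0.059, Mrps18a -0.053, Mrps18c 0.041, Mrpl10 0.069, Mrps30 -0.00090, and in UUO_Si against sham Mrpl19 0.028, Mrps18c -0.025. With replicate block, log2 values were in UUO against sham Mrps18c -0.076, Mrps30 -0.097, and in UUO_Si against UUO Mrpl12 -0.0012, Mrps18a -0.011, and in UUO_Si against sham Mrps12 0.011, Mrps18c -0.10, Mrps30 -0.070. Without code series RM6 and RM7, log2 values were in UUO against sham Mrps18c -0.13, and in UUO_Si against UUO Mrpl33 0.058, Mrpl52 0.082, Mrps10 0.014, Mrps18a -0.037, Mrps18c 0.058, Mrpl10 0.088, Mrps30 -7.89e-06, and in UUO_Si against sham Mrps18c -0.070. Without the 4 receptor-gene libraries, log2 values were in UUO against sham Mrps18c -0.15, and in UUO_Si against UUO Mrpl33 0.058, Mrpl52 0.082, Mrps10 0.014, Mrps18a -0.037, Mrps18c 0.058, Mrpl10 0.088, Mrps30 -0.00020, and in UUO_Si against sham Mrpl19 0.071, Mrps18c -0.088. With RLE scaling, log2 values were in UUO_Si against UUO Mrps18a -0.0020. With upper-quartile scaling, log2 values were in UUO_Si against UUO Mrps18a -0.0034, and in UUO_Si against sham Mrps12 0.020, Mrpl19 0.013. With no filter, log2 values were in UUO_Si against UUO Mrps18a -0.0059. With DESeq2, log2 values were in UUO_Si against UUO Mrps18a -0.0012. Without Rn45s and haemoglobin genes, log2 values were in UUO_Si against UUO Mrps18a -0.0048. In UUO against sham, leaving out 1 library gave ranges of -0.020 to 0.22 for Mrps18c, -0.25 to 0.0093 for Mrpl10. In UUO_Si against UUO, leaving out 1 library gave ranges of -0.051 to 0.099 for Mrpl38, -0.11 to 0.021 for Mrpl33, -0.17 to 0.040 for Mrps21, -0.071 to 0.057 for Mrpl52, -0.11 to 0.092 for Mrpl12, -0.020 to 0.15 for Mrpl32, -0.11 to 0.061 for Mrps18a, -0.14 to 0.027 for Mrps18b, -0.15 to 0.072 for Mrps18c, -0.095 to 0.036 for Mrpl10, -0.28 to 0.011 for Mrpl11, -0.061 to 0.10 for Mrps30, -0.041 to 0.19 for Mrps36. In UUO_Si against sham, leaving out 1 library gave ranges of -0.18 to 0.042 for Mrps12, -0.12 to 0.063 for Mrpl19, -0.071 to 0.19 for Mrps18c.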
